A study of Mus musculus with 58 samples.

Results

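Perineuronal nets were examined here through 8 genes of the extracellular matrix, chosen by symbol and not by level: the lecticans Acan, Bcan, Ncan and Vcan, the link proteins Hapln1 and Hapln4, the glycoprotein Tnr and the hyaluronan synthase Has3. All 8 were found among the 25648 genes of the count table. They were described in single parvalbumin (PV) cells of the ventral subiculum, an output region of the hippocampal formation, in PV-Cre::Ai9 mice. In these mice Cre recombinase made under the parvalbumin gene switches on the Ai9 fluorescent reporter, which all animals carried, so a cell is marked by its history of Pvalb transcription and not by its Pvalb level when harvested. Cytosol was aspirated through the patch pipette, and every cell became a library of its own. Of 58 cells, 54 carried the quality label Pass, 27 from males and 27 from females. The males, 4 animals in all, gave 14 cells at P35 (postnatal day 35) and 13 at P36, and the females, 3 animals, gave 17 cells at P40 and 10 at P42. No treatment is named.

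Which animal a cell came from is not labelled. Cells of 1 animal share their source, so cells are used below to describe spread, and the sexes were compared only over the summed counts of the 4 sex and age pools. Sex and age cannot be told apart in this design. Pass cells held 2.05 M to 52.3 M counts (median 11.5 M) and 11591 to 14351 detected genes, and 0 pairs of cells had identical counts. The marker genes of PV interneurons were present: Pvalb was above 1 CPM (the gene's count per 1000000 counts of the cell) in all 54 cells and Gad1, the main GABA-synthesising enzyme, had a median of 3560 CPM. Pvalb was below 10 CPM in 7 cells and below Sst, a marker of another interneuron class, in 14.

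A perineuronal net is a lattice of matrix wrapped around the soma and proximal dendrites of certain neurons, above all PV interneurons. Hyaluronan, extruded at the cell surface by synthases such as Has3, forms its backbone. Lecticans are chondroitin sulfate proteoglycans that bind hyaluronan through one end, where link proteins clamp the joint, and bind tenascin-R, the product of Tnr, through the other. Net proteins can come from the enwrapped neuron and from glia nearby. For example, astrocytes are known to make neurocan (Ncan) and brevican (Bcan), and oligodendrocyte precursors versican (Vcan) and tenascin-R. These sources do not exclude each other.

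Because the results turn on the contrast between Bcan, the most abundant lectican in these cells, and Acan, the lectican most used as a net marker, the stretch around the start site of each gene is shown from RefSeq (GRCm38.p6, 250 bases before to 50 bases after the start). Capitals mark matches to the GC box GGGCGG on either strand. Bcan lies on the minus strand at chr3:88000307-88000606 and Acan on the plus strand at chr7:79052976-79053275. The GENCODE genes whose coordinates are given further on begin 126 bases downstream of this RefSeq start for Bcan and 257 bases downstream for Acan, so both windows lie outside them.
Bcan: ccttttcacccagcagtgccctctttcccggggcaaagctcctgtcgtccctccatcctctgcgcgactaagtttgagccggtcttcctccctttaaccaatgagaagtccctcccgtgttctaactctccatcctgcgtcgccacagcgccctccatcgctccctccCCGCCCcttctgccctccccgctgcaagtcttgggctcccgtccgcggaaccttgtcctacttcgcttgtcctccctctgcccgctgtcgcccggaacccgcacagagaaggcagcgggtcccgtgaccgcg
Acan: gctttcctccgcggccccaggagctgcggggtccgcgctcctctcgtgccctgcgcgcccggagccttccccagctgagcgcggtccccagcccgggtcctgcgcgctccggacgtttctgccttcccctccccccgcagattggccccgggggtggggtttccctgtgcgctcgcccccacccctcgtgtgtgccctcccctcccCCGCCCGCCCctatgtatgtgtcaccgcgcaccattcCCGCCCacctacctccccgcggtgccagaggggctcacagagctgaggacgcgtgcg
The Acan window held 3 GC boxes, 2 of them overlapping each other, with 74% GC and 31 CpG dinucleotides, and the Bcan window held 1 GC box with 64% GC and 24 CpG. Of all 32851 promoter windows of this length, 35.7% held a GC box on either strand and the median was 52.7% GC with 7 CpG. The Ncan window had 1 GC box, Vcan 2, and Hapln1 and Tnr 0. These matches describe the letters only.

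Hapln4 and Bcan were the abundant net transcripts. Hapln4, the brain link protein 2, is known for binding brevican, and its gene lies at chr8:70083457-70090862 (plus strand). Over the 54 cells it ranged from 9.63 CPM in male cell 7 through a median of 228 to 565 in female cell 26. Its median was 182 CPM in P35 males (9.63 to 474), 217 in P36 males (59.0 to 558), 272 in P40 females (57.7 to 565) and 253 in P42 females (27.5 to 544). The 4 pools overlapped over most of their range, and male cell 7 stood alone below 27.5 CPM. Bcan (chr3:87987531-88000230, minus strand) ranged from 3.70 CPM in male cell 16 through a median of 160 to 442 in male cell 14. Its pool medians were close to each other: 162 CPM in P35 males (47.1 to 321), 159 in P36 males (3.70 to 442), 168 in P40 females (26.9 to 330) and 169 in P42 females (15.1 to 362). Both genes reached 1 CPM in 54 of 54 cells (exact 95% interval 93.4 to 100%), and Hapln4 reached 10 CPM in 53 and Bcan in 52. Without the 7 cells under 10 CPM of Pvalb, left out after the data were seen, both still reached 1 CPM in 47 of 47. Their coefficients of variation over cells, 0.57 for Hapln4 and 0.56 for Bcan, were above that of Gad1 (0.38) and below that of Pvalb (1.19). The intervals of shares cover counting error over cells only.

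**Figure D1:**
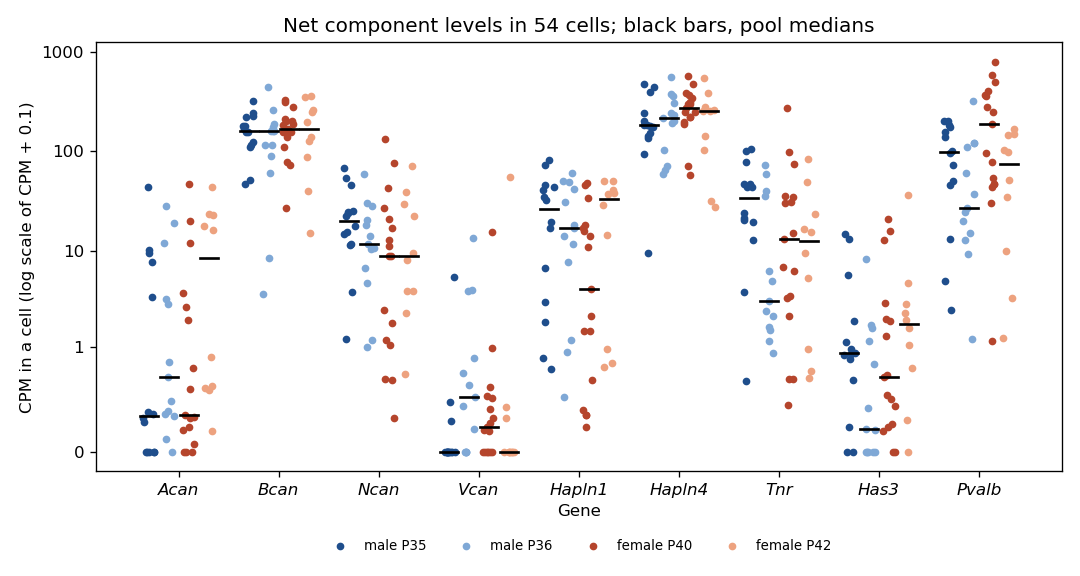
Level of each net component and of Pvalb in 54 Pass cells, in CPM of the cell's total on a log scale of CPM + 0.1, with 1 point per cell, coloured by sex and age pool, and black bars at pool medians. Bcan and Hapln4 have medians of 160 and 228 CPM, with lowest cells at 3.70 and 9.63 CPM. Acan, Hapln1 and Tnr spread further on the log scale, and Vcan lies at 0 in 28 cells.

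Hapln1, Ncan and Tnr were present in every cell with at least 1 count, at levels that spread far more. Hapln1, the link protein known to stabilise aggrecan on hyaluronan (chr13:89539796-89611652, plus strand), ranged from 0.0747 CPM in female cell 4 through a median of 16.5 to 81.5 in male cell 18. It was at 10 CPM or above in 33 cells and below 2.5 CPM in 17, with 4 cells between those limits, which were chosen after the values were seen. Pool medians were 26.3 CPM in P35 males, 17.01 in P36 males, 4.10 in P40 females and 33.2 in P42 females, and every pool held cells of both kinds. Ncan (chr8:70093085-70120873, minus strand), the lectican abundant in the developing brain, ranged from 0.118 CPM in female cell 28 through a median of 12.5 to 133 in female cell 27. Its pool medians were 20.3 CPM in P35 males, 11.9 in P36 males, 9.02 in P40 females and 8.82 in P42 females, with overlapping ranges. Tnr (chr1:159523769-159931729, plus strand) ranged from 0.191 CPM in female cell 29 through a median of 15.3 to 270 in female cell 3. Its pool medians were 34.1 CPM in P35 males, 3.12 in P36 males, 13.2 in P40 females and 12.5 in P42 females, again overlapping. Female cell 3, the deepest library, held 46.3% of all Tnr counts and 80.0% of those of its pool. At 1 CPM or above Ncan was found in 50 cells, Tnr in 46 and Hapln1 in 42.

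Acan, Has3 and Vcan were low in most cells. Acan encodes aggrecan (chr7:79053483-79115099, plus strand), the lectican most tied to the structure of nets in adult cortex. It ranged from 0 through a median of 0.326 to 46.8 CPM in female cell 23, and was below 1 CPM in 33 cells, from 1 to 10 CPM in 8 and at 10 CPM or above in 13. By pool the medians were 0.126 CPM in P35 males (0 to 43.8), 0.459 in P36 males (0 to 28.3), 0.134 in P40 females (0 to 46.8) and 8.49 in P42 females (0.0603 to 43.9). The female P42 median stood apart, with 5 of 10 cells at 10 CPM or above, though the ranges overlapped. The 9 cells with no Acan count had depths that would allow 0.107 to 1.46 CPM (3 counts). The share of cells at 1 CPM was 21 of 54 (38.9%, exact 95% interval 25.9 to 53.1%), and 17 of 47 without the cells under 10 CPM of Pvalb. The 10 astrocyte markers reached 1 CPM in 14 (Agt) to 54 (Aldoc) cells, with Aqp4 at 15, Gjb6 at 16 and Aldh1l1 at 19 below Acan, and Gfap level with it at 21. At 10 CPM the count was 13 for Acan. Of the astrocyte markers, Aldoc stood at 54, Slc1a2 at 46, Slc4a4 at 34, Slc1a3 at 29 and Gfap at 15. Gja1 and Gjb6 stood at 11, Aldh1l1 at 10, Agt at 9 and Aqp4 at 7. In P42 females 5 cells held 10 CPM of Acan or more. In that pool Aldoc did so in 10 cells, Slc1a2 and Slc1a3 in 5, and Gjb6 and Slc4a4 in 3. Gja1 and Aqp4 did so in 2, Aldh1l1 in 1, and Gfap and Agt in 0. The astrocyte markers spanned 14 to 54 of 54 cells at 1 CPM. That range is so wide that a share inside it says little about where Acan RNA came from. What part of the Acan share is RNA from other cells was not tested.

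Has3 makes hyaluronan, mostly of shorter chains (chr8:106870242-106884566, plus strand). It ranged from 0 through a median of 0.787 to 36.9 CPM in female cell 11, and was below 1 CPM in 31 cells. Its exons share 352 bases, 5.52% of its exon length, with Chtf8 on the opposite strand. Chtf8 was also the gene whose pattern over cells was most like that of Has3 (Spearman rho 0.52). By pool the value was 0.77 and 0.91 in the P35 and P36 males. It was −0.005 and 0.36 in the P40 and P42 females, so the likeness was absent in the P40 females. No source used here gives the strand setting of the counting, so reads from the overlap cannot be assigned to either gene. Vcan (chr13:89655312-89742509, minus strand), the lectican of oligodendrocyte precursors and of development, had no count in 28 cells, whose depths would allow 0.0573 to 1.45 CPM, and reached 1 CPM in 6. Those 6 were male cell 8 (5.47 CPM), male cell 13 (4.03), male cell 14 (3.96), male cell 29 (13.6), female cell 2 (15.4) and female cell 20 (55.0). Female cell 20 held 61.5% of all Vcan counts. In the same cell Pdgfra, a defining marker of oligodendrocyte precursors, was at 94.1 CPM, its highest value over all cells, and Pvalb at 3.34 CPM. Pdgfra was at 31.1 CPM in male cell 13 and 7.49 in male cell 29, but at 0.146 in male cell 8, 0.253 in male cell 14 and 0.536 in female cell 2. What part precursor RNA has in the Vcan counts was not tested.

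Divided by exon length, so that genes can be compared, the order of the median levels was Hapln4 (58.1 CPM per kb), Bcan (39.3), Hapln1 (2.80), Ncan (1.73), Tnr (1.19), Has3 (0.123), Acan (0.0437) and Vcan (0). Hapln4 was above Bcan in 41 of 54 cells, and Bcan above Hapln1 in 52. Neighbours in the middle of the order did not differ beyond their spread: Hapln1 was above Ncan in 26 of 54 cells, Ncan above Tnr in 28 and Has3 above Acan in 25. Tnr was above Has3 in 46 cells and Acan above Vcan in 39. Between the link proteins the order held in every cell, Hapln4 above Hapln1 in 54 of 54, with a median ratio of 19.8 that ran from 3.28 to 5473.

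Among the lecticans Bcan led per length in 51 of 54 cells and made up a median of 91.0% of the summed lectican level. Ncan led in the other 3 cells. These were male cell 12, with 4.23 CPM per kb of Ncan against 2.09 of Bcan, male cell 16, with 2.85 against 0.910, and female cell 14, where 10.01 and 9.95 were nearly equal. Acan led in 0 cells, and its largest share was 39.0%. Vcan never exceeded 3.82% of the lectican level.

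**Figure D2:**
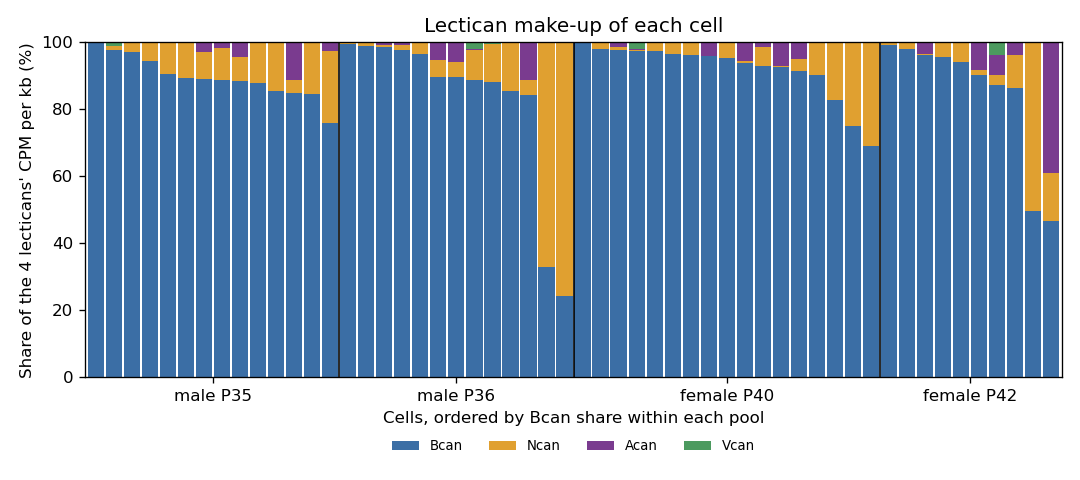
Share of each lectican in the summed CPM per kb of the 4 lecticans, 1 bar per cell, ordered by the Bcan share within each sex and age pool. Bcan takes more than 50% of the bar in 50 of 54 cells and leads in 51, with Ncan ahead in 3 and Acan reaching at most 39.0%.

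Most cells carried a partial set of net transcripts. At 1 CPM or above, 24 cells had 5 of the 8 members and 19 had 6, while 1 cell had 3, 4 cells had 4, 5 cells had 7 and 1 cell had all 8. Acan and Hapln1, whose products bind each other, both reached 1 CPM in 18 cells. Hapln1 did so without Acan in 24 cells, Acan without Hapln1 in 3, and neither did in 9.

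Levels of the members were only loosely tied to each other from cell to cell. The 28 pairwise rank correlations over 54 cells had a median of 0.05 and ran from −0.25 (Acan with Ncan) to 0.36 (Hapln1 with Hapln4), with 17 above 0 and 11 below. These and the correlations that follow are descriptions: the points share animals, amplification and depth. Hapln1 and Hapln4, the link proteins, were positive in all 4 pools (0.82 and 0.66 in the P35 and P36 males, 0.02 and 0.62 in the P40 and P42 females). The next was Hapln4 with Has3 (0.32). Only 6 of the 28 pairs kept their sign in all 4 pools.

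Link proteins and lecticans are encoded side by side in the mouse genome, each link protein next to a lectican, and the neighbours were expressed at unequal levels here. Hapln4 and Ncan lie 2222 bases apart, yet Hapln4 was above Ncan per length in 54 of 54 cells and the rank correlation between them was −0.004. Hapln1 and Vcan are separated by 43659 bases, with Hapln1 higher in 51 of 54 cells and a correlation of −0.004. Bcan was above its neighbour Hapln2, the link protein of myelinated axons, in 53 of 54 cells, and Hapln2 was at 0 in 32 cells (correlation −0.008). Acan and Hapln3 end 2 bases from each other on opposite strands, and both were low, with medians of 0.0437 and 0.0180 CPM per kb.

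Hapln4 was the member whose level followed Pvalb most closely. Its rank correlation with Pvalb was 0.35 over 54 cells (Pearson r of log2(CPM + 1) 0.26), and 0.999% of 12713 genes detected in at least 27 cells were at or above this value. It was 0.50 and 0.49 in the P35 and P36 males and 0.02 and 0.31 in the P40 and P42 females. With Gad1 it was 0.48, and between 0.32 and 0.51 in each pool, where 0.472% of genes were at or above the pooled value. Bcan had a correlation of 0.24 with Pvalb (0.51, 0.44, 0.10 and 0.25 in the same pools), and 5.40% of genes were at or above it. Over all genes the correlations with Pvalb had a median of 0.003 and 95% of them lay between −0.30 and 0.30. Hapln4 was above that range and Bcan inside it. The other members were also inside it: Tnr 0.11, Has3 0.06, Acan 0.05, Hapln1 0.03, Vcan −0.01 and Ncan −0.10. The female cell with the highest Acan (46.8 CPM) had 1.18 CPM of Pvalb, the lowest of all 54.

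**Figure D3:**
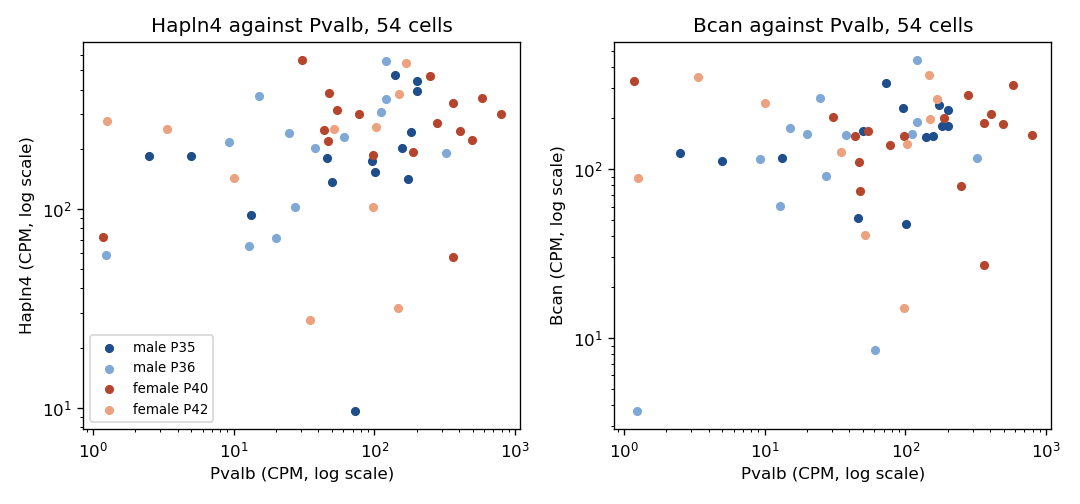
Hapln4 (left) and Bcan (right) against Pvalb in CPM, both axes on a log scale, with 1 point per Pass cell coloured by sex and age pool. Hapln4 has a rank correlation of 0.35 and Bcan of 0.24 with Pvalb over 54 cells, and both genes exceed 50 CPM in most cells with under 10 CPM of Pvalb.

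Transcripts known from glia were present in these libraries, to very different extents. The 10 astrocyte markers summed to 95.1 to 5256 CPM per cell (median 791), of which Aldoc made up a median of 667 CPM and Slc1a2 49.3, while Aqp4 had a median of 0.246 CPM. The sum ran from 230 to 1605 CPM in male cells and from 95.1 to 5256 in female cells. The 8 oligodendrocyte precursor markers summed to 0.536 to 981.5 CPM (median 32.7), from 0.536 to 886 in male and 0.719 to 981.5 in female cells, led by Olig1 (16.9) and C1ql1 (0.875), with Cspg4 at a median of 0. The 9 oligodendrocyte markers summed to 151 to 12822 CPM in male and 97.6 to 2307 in female cells, led by Mbp (284) and Cnp (98.0), with Opalin at a median of 0. The 9 microglial markers summed to 40.1 to 3043 CPM in male and 40.5 to 11244 in female cells, with C1qb at a median of 53.3 CPM and no marker at a median of 0.

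Beside these sums, Hapln1 and Ncan stood at opposite ends. Hapln1 had a rank correlation of −0.39 with the precursor marker sum, negative in all 4 pools (−0.04 and −0.45 in the P35 and P36 males, −0.41 and −0.61 in the P40 and P42 females), and 0.346% of 12707 genes were at or below it. Ncan had a correlation of 0.31 with the same sum, positive in all 4 pools (0.15, 0.78, 0.25 and 0.41), and 1.98% of genes were at or above it. With each marker weighted equally, a weighting added after the data were seen, the values were −0.32 for Hapln1 and 0.30 for Ncan. Tnr (0.22) and Vcan (0.20) were also above 0, Tnr in all 4 pools. What part precursor RNA has in the levels of Ncan, Tnr, Vcan or any other member was not tested.

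With the astrocyte sum, Hapln4 (0.23), Has3 (0.21) and Hapln1 (0.12) were positive and Acan (−0.19) negative in all 4 pools. Weighting the markers equally, so that Aldoc does not dominate, gave 0.38 for Hapln4, 0.42 for Has3 and −0.12 for Acan. That weighting was added after the data were seen, and no range over all genes is given for it. Bcan and Ncan, which astrocytes are known to make, had correlations of 0.13 and −0.09 with the summed astrocyte markers. With the microglial sum Hapln1 was at −0.25, with both signs among the pools, and with the sum of excitatory neuron markers Hapln1 was at −0.31 and Hapln4 at −0.30, both negative in all 4 pools. With the sums themselves, these excitatory and astrocyte values lay inside the range that held 95% of all genes, −0.33 to 0.36 for the excitatory sum and −0.30 to 0.27 for the astrocyte sum. The part of RNA from other cells in these levels was not tested. None of the 8 members had a correlation of size 0.2 or more with total counts, but with the number of detected genes Acan had 0.33 and Tnr 0.25, both positive in all 4 pools.

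**Figure D4:**
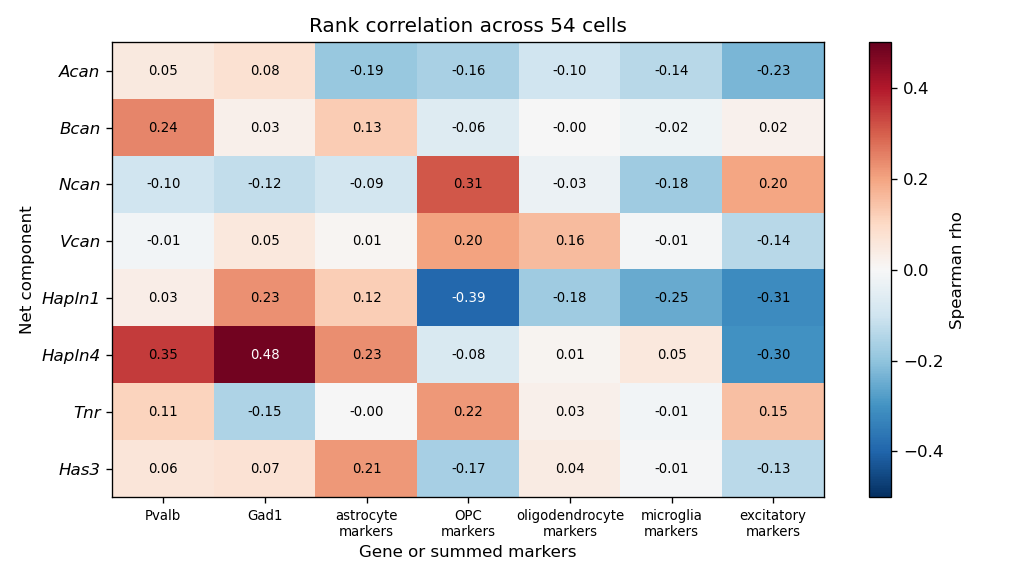
Spearman rank correlation over 54 Pass cells of each net component (rows) with Pvalb, Gad1 and the summed CPM of marker lists for 5 other cell types (columns), coloured from −0.5 (blue) to 0.5 (red). Hapln4 is highest against Gad1 (0.48) and Pvalb (0.35), and Hapln1 is lowest against the oligodendrocyte precursor (OPC) markers (−0.39).

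The genes most like each member in pattern over the 54 cells were not other members. For Hapln1 they were Chrm2, the M2 muscarinic acetylcholine receptor (rho 0.58), and Ina, the neurofilament protein alpha-internexin (0.54). For Hapln4 they were Acss2, which makes acetyl-CoA from acetate (0.52), and Fam131c (0.51), followed by Kcnab3, a potassium channel beta subunit (0.51). The leading gene was Il1rapl2, an interleukin 1 receptor family member, for Acan (0.55), Atp6v0a2, a subunit of the vacuolar proton pump, for Bcan (0.53), and Tmem176b for Ncan (0.50). Cntn1, the adhesion protein contactin 1 that binds tenascin-R, was among the 3 genes most like Tnr (0.49). Vcan was detected in too few cells for this measure. The values given were picked as the highest among 12713 genes compared for each member. Acan and Il1rapl2 were both low, with medians of 0.326 and 0.218 CPM.

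Membrane values in the labels, each given for 49 of the cells, showed no close relation with the members. The cells with a vrest value were not all the same as those with rm and cm. The largest rank correlations were Has3 with cm (−0.28), Hapln1 with cm (0.26), Ncan with vrest (−0.26), Has3 with rm (0.24) and Acan with rm (−0.23), with cm, rm and vrest as the labels name them.

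The other genes of net assembly and turnover were read from a list of 54. Of the hyaluronan synthases and link proteins besides the members, 0 of 4 reached 1 CPM in at least 27 cells, and Has1 (0.0284 CPM per kb) and Hapln3 (0.0180) had the highest medians. Among 6 binding partners and regulators 2 did. Crtac1, a secreted cartilage acidic protein, had a median of 78.9 CPM per kb, above every member, and Ptprz1, a receptor phosphatase that also exists as a secreted proteoglycan, 0.317. Of 9 receptors 6 reached that level, led by the Nogo receptor family member Rtn4rl1 (30.6 CPM per kb) and Ptprs, a phosphatase that binds chondroitin sulfate (14.4).

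Of 15 enzymes that build or sulfate chondroitin chains, 8 reached 1 CPM in at least 27 cells, and the chain polymerising factors Chpf (58.5 CPM per kb) and Chpf2 (14) did so in all 54. Of 8 proteases 3 reached it, the aggrecanase Adamts1 with 6.29 CPM per kb and Adamts8 with 3.38 ahead of the others. Of 4 protease inhibitors 3 reached it, with Timp2 (49.5) and Timp4 (24.0) at or above 1 CPM in all 54 cells, while Timp1 had no count in any. Hyaluronan breakdown was represented by Hyal1 (1.55) and Cemip (0.696), 2 of 4 genes, and other proteoglycans by Cspg5 (12.1) and Sdc3 (8.58), also 2 of 4.

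No net component differed between the sexes by the test used. In edgeR's quasi-likelihood test on the 4 pool sums, 0 of the 8 members had an adjusted p under 0.05, against 2 of 14933 genes tested (0.0134%), and 0 of 8 had an unadjusted p under 0.05, against 5.51% of all genes. DESeq2 called 0 of the 8, against 179 of all genes tested, and limma 0 of the 8, against 2 of all genes tested. Values of the pools did not overlap between the sexes for 2 of 8 members, against 33.9% of all genes. Those 2 were Bcan and Has3. Bcan stood at 163 CPM in P35 males, 143 in P36 males, 179 in P40 females and 185 in P42 females, a log2 difference (female minus male) of 0.25 with SE 0.19 (edgeR adjusted p = 0.983). Has3 stood at 2.94, 0.883, 6.24 and 3.02 CPM in the same order, a log2 difference of 1.28 with SE 1.28 (edgeR adjusted p = 0.986). The female pools were higher for both, and the male P35 and female P42 values of Has3 nearly touched. Female cell 3 gave 57.9% of the Has3 counts of female P40, and without it the log2 difference of Has3 was 0.75.

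The remaining pools overlapped. Acan was at 4.73, 5.14, 3.98 and 13.1 CPM in the same order of pools (log2 difference 0.79, SE 0.93), and only the female P42 pool was high. Female cell 20 gave 44.8% of the Acan counts of that pool. The precursor markers summed to 85.7 and 216 CPM in the male P35 and P36 pools and to 180 and 184 CPM in the P40 and P42 pools of females, and their part in the Acan values was not tested. Hapln1 was at 28.5, 20.8, 13.4 and 24.5 CPM (log2 difference −0.38, SE 0.49) and Hapln4 at 241, 205, 275 and 209 CPM (0.12, SE 0.21). Ncan was at 28.6, 19.2, 31.9 and 13.5 CPM (−0.08, SE 0.54). Female cell 3 gave 55.0% of the Ncan counts of female P40, and without it the difference was −0.58. Vcan was at 0.438, 2.22, 0.589 and 7.40 CPM (1.59, SE 1.64), with 99.8% of the female P42 counts from female cell 20. Tnr was at 38.7, 21.6, 76.3 and 21.2 CPM (0.69, SE 0.60), and without female cell 3 its difference was −0.56. Over the 8 members the median log2 difference was 0.47, beside 0.004 over all genes tested. Of the members 6 of 8 were above 0, beside 7537 of 14933 genes. Among those 6, Acan, Vcan, Hapln4 and Tnr changed sign when 1 pool was left out. Of the 54 other net genes 47 were tested and 0 called, with 8 of 47 at an unadjusted p under 0.05, against 5.51% of all genes, and 19 of 47 without overlap between the sexes, against 33.9%.

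**Figure D5:**
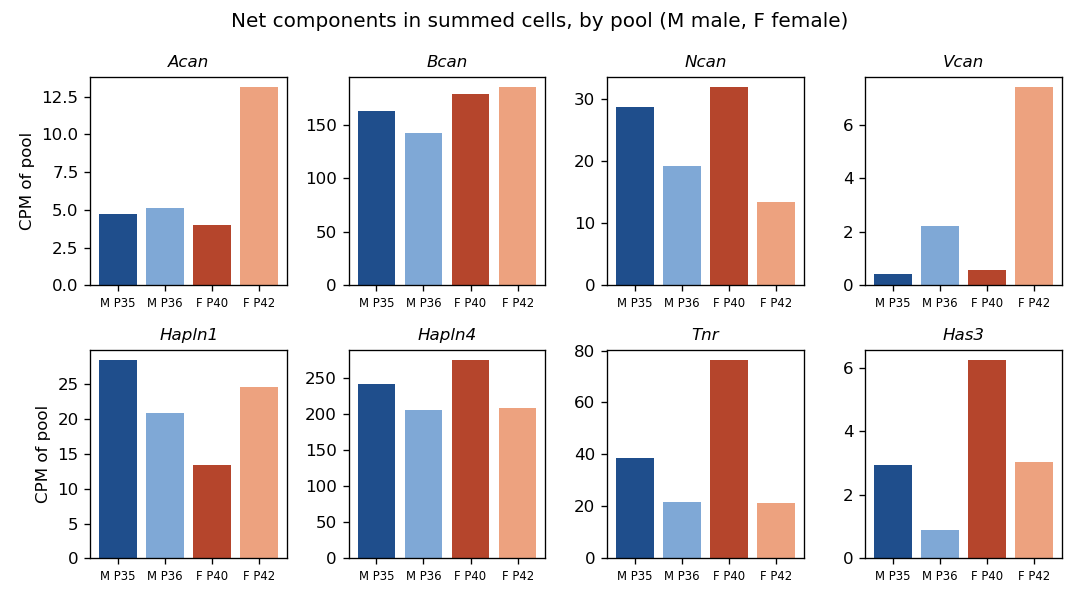
Level of each net component in the summed counts of the 4 sex and age pools, in CPM of the normalised pool total, with 1 bar per pool, a linear axis from 0 and no error bars since each bar is 1 pool. Only Bcan and Has3 have both female bars above both male bars, and the tall Tnr bar of female P40 holds 80.0% of its counts from 1 cell.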

How the data were processed

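Cytosol of 58 single cells was harvested by patch pipette and libraries came from the Nextera XT kit, as stated per the labels' protocols. The count table the authors deposited holds whole-number counts of 25648 genes, not normalized. STAR, edgeR and GRCm38 are named in the submitters' processing notes. Versions, the counting tool, annotation and strand setting: not given in the sources used here. All columns matched a labelled cell (0 left over). The deposited normalized values and neurexin isoform table were not used.

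Levels are CPM of a cell's total, and CPM per kb divides by the union of exons in GENCODE vM21 (GRCm38), which does not resolve isoforms. Correlations are Spearman's rho of CPM. Pass cells were summed into 4 pools, independent only if each animal was used at 1 age, so p-values measure the spread between pools, 2 per sex. Genes with a count in at least 10 cells that passed filterByExpr (14933) were tested with edgeR 4.0.16 (R 4.3.3), TMM scaling, quasi-likelihood F test, two-sided, Benjamini-Hochberg adjusted over all, called at adjusted p under 0.05. Shares have exact (Clopper-Pearson) 95% intervals, and a count of 0 was given a limit of 3 counts. The intervals treat cells as independent, though cells share animals. The limit treats counts as independent, though the labels name no molecular identifiers, so copies made by amplification may be among them. Alternatives used DESeq2 1.42.0, limma 3.58.1, other filters, thinning of cells to 2000000 counts, and leaving out pools.

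Members and lists were chosen with earlier results of these data known. The text names all members, the 2 genes with the highest median per list, the genes most alike, and cells singled out after their values were seen. The 4 Fail cells entered no comparison. Some results are left out and not reported here, though the fits, counts and marker sums include all genes.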

Additional observations from a re-analysis of the deposited data

Results flagged for a closer look

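The 4 cells with the quality label Fail entered no comparison, and each net component had counts in them above the limit that a count of 0 allows. In their summed counts Hapln4 was at 238 CPM and Bcan at 114.5 CPM, the same 2 leading genes as in the Pass cells. Hapln1 was at 37.7 CPM, Tnr at 12.3, Ncan at 9.21, Has3 at 4.96, Vcan at 2.41 and Acan at 1.42. Acan rested on 10 counts, Vcan on 17 from 1 cell and Has3 on 35 from 1 cell. Fail libraries held 0.546 M to 5.08 M counts. The deepest held 72.0% of the counts of the 4 cells, so the summed values mostly describe that cell. Medians over the 4 cells were 243 CPM for Hapln4, 209 for Bcan, 11.4 for Hapln1 and 0 for Has3.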

How the results depend on the processing

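No member was called between the sexes under any alternative run, while the number of genes called over the whole table, 2 as reported, was 111 with no filter on low counts, 179 with DESeq2 and between 0 and 21 when 1 pool was left out (0 without male P36, 1 without male P35, 21 without female P40). Of 88 recomputed log2 differences (female minus male) 10 reversed. Leaving out 1 pool gave −0.298 to 1.42 for Acan (reversed without female P42), −0.822 to 0.426 for Ncan (reversed without male P35, 0.241, and without female P42), −1.16 to 3.19 for Vcan (reversed without female P42), −0.0917 to 0.312 for Hapln4 (reversed without female P40) and −0.505 to 1.35 for Tnr (reversed without female P40). With limma on mean log2(CPM + 1) Vcan was at −0.0227 and Tnr at −0.369, and Tnr was at −0.0838 with cells thinned to equal totals and at −0.561 without female cell 3. The cause of the other reversals was not tested.

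Shares of cells depend on the level asked for. From at least 1 count to at least 1 CPM, at least 10 CPM and at least 1 count after thinning, the share went from 83.3% to 38.9%, 24.1% and 63.0% for Acan, from 48.1% to 11.1%, 5.56% and 27.8% for Vcan, from 100% to 77.8%, 61.1% and 90.7% for Hapln1, and from 81.5% to 42.6%, 11.1% and 59.3% for Has3. Ncan went from 100% to 92.6% and 61.1%, and Tnr from 100% to 85.2% and 55.6%, at 1 and 10 CPM. Without division by length Acan led the lecticans in 1 cell, and the 3 cells led by Ncan became 1 to 3 when 1 pool was left out (1 without male P36). Of 40 rank correlations with Pvalb and the glial sums, 18 kept their sign in all 12 or 13 alternatives, among them Hapln4 with Pvalb (0.259 to 0.404), Hapln1 with the precursor sum (−0.48 to −0.305) and Ncan with it (0.188 to 0.386). No paired analysis was possible because replicate numbers only name cells in accession order and pair nothing across the sexes. Depth limits the low members: a cell with no count could hold up to 1.46 CPM of Acan.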
